A study of Rattus norvegicus with 6 samples.

Results

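The cells described here are brain pericytes of sham-operated rats that carry transcripts of the vascular ATP-sensitive potassium (KATP) channel, called KATP pericytes below. They were taken from 3 sham libraries by a rule on transcript counts. A cell barcode needed at least 500 unique molecular identifiers (UMIs, counted transcript molecules), at least 200 genes and at most 20% of its UMIs from mitochondrially encoded genes. It also needed a UMI of at least 2 of the 3 genes Abcc9, Kcnj8 and Atp13a5, and had to hold under 1% of its UMIs from Tagln, Acta2 and Myh11, a sum called the contractile share below. This gave 1543 cells of the 19240 sham barcodes past the filters, 561 in sham 1, 494 in sham 2 and 488 in sham 3. The whole series holds 38685 such barcodes of 44011 deposited.

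The series measured single cells of the rat brain, with the pons named in its title, in 3 sham libraries and 3 libraries from rats with a pontine infarction, a stroke of the pons. All animals were Sprague Dawley rats, and all carry the age label postnatal day 21, with no word on which day of the experiment it refers to. The labels name 3 rats for the infarction, and do not say how many rats gave each sham library, what the sham operation was, or how the vessels were freed. The gene tests below, unless stated otherwise, compare cell populations within each library. Their p-values therefore set a difference between populations against its spread over the sham libraries. The spread between libraries enters the fits with no replicate block and the permutation test of sham against infarction. Either spread may be technical. The 6 libraries held 56416475 to 69924334 UMIs each, counted at the 3′ ends of transcripts. Over all pairs of libraries 226 barcode sequences were shared, and none of them belonged to a KATP pericyte.

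Pericytes sit on the wall of capillaries inside the basement membrane that they share with the endothelium, and adjoin the smooth muscle cells of larger vessels. In brain they help to keep the blood-brain barrier and to set capillary tone. The KATP channel is built of inward rectifier pore subunits and an equal number of sulfonylurea receptors. It opens when the energy state of the cell falls or when receptors raise cyclic AMP, and its potassium current hyperpolarises the cell. Kcnj8 encodes the pore subunit and Abcc9 the receptor found in vascular cells, whereas Kcnj11 and Abcc8 encode their counterparts in pancreatic beta cells and neurons. Atp13a5 encodes a transport ATPase that marks brain pericytes.

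KATP pericytes were set beside other sham populations, none of which shares a cell with them. Contractile cells (3857) had a contractile share of at least 5%. Intermediate mural cells (5751) had a share of 1% to 5% and a UMI of at least 2 of Pdgfrb, Notch3 and Cspg4. Low-contractile mural cells outside the rule (318) met the same receptor condition under 1%. A further group of 763 cells, chosen after the data had been seen and not tested, held at most 1 of the 3 genes of the rule, a contractile share of at least 1% and at least 0.4% of UMIs from Rgs5 and Ndufa4l2. It was not kept apart from the intermediate and contractile cells and is called Rgs5-Ndufa4l2 cells. Microglia cells (3268) and endothelial cells (318), which should lack mural genes, are given where a low level could be free RNA, the transcripts that leak into droplets. The 8 smooth muscle markers summed to 5343 to 6803 scaled CPM in microglia cells and 327 to 1265 in endothelial cells, so that these populations do not give 1 background level. Median depth was 3784 UMIs in KATP pericytes, 5895 in Rgs5-Ndufa4l2 cells, 8043 in intermediate and 11007 in contractile cells.

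Levels are CPM, counts divided by the total and set to a common scale, in the summed population of a library, scaled with TMM factors computed over 21 such sums, and are called scaled CPM. They are means ± SD over the 3 sham libraries. Values of single cells or cell classes are not scaled and are given as raw CPM.

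The 3 genes that chose the cells are described without a test. Abcc9 stood at 1492, 1479 and 1428 scaled CPM in KATP pericytes of sham 1 to 3. In intermediate mural cells it stood at 31.3, 24.2 and 28.9, and in contractile cells at 31.8, 17.7 and 35.2. The libraries of the populations did not overlap, and as Abcc9 chose the cells this is a description. Kcnj8 stood at 823, 855 and 958 scaled CPM in KATP pericytes against 13 ± 1.24 in intermediate and 6.45 ± 1.65 in contractile cells. Atp13a5 stood at 650, 652 and 725 against 12.9 ± 0.907 and 0.395 ± 0.289. In microglia cells the 3 genes were at 4.59, 1.71 and 1.37 scaled CPM. After every cell was thinned to 3000 UMIs, which left 1200 of the 1543 cells, Abcc9 was found in 91.8% of KATP pericytes (97.5% before thinning). The thinned share was 3.57% of intermediate mural cells and 0.695% of microglia cells.

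In the rat genome Kcnj8 and Abcc9 are neighbours on chromosome 4, with 16299 bases and no annotated gene between them (RefSeq, build GRCr8). Atp13a5 lies on chromosome 11. The runs below show the bases just before the start of Kcnj8 and Atp13a5, which choose these cells, and of Acta2, which keeps cells out. The window given for Abcc9 lies inside its gene record and is not printed. Capitals mark 4 motifs on either strand: the GC box GGGCGG, the RBPJ site TGGGAA, the forkhead site TAAACA and the CArG box bound by serum response factor, the last with 1 of its middle letters free.
Kcnj8, chr4:177246549-177246798, minus strand: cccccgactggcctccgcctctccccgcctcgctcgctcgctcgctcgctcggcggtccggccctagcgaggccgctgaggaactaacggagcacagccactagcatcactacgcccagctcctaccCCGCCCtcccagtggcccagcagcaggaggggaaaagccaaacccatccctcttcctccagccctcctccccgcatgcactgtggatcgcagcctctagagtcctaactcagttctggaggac
Atp13a5, chr11:84880980-84881195, plus strand: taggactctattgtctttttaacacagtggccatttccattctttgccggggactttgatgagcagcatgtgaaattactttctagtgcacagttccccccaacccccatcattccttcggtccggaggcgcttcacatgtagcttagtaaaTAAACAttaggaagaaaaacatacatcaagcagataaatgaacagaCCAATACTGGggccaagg
Acta2, chr1:241172504-241172753, minus strand: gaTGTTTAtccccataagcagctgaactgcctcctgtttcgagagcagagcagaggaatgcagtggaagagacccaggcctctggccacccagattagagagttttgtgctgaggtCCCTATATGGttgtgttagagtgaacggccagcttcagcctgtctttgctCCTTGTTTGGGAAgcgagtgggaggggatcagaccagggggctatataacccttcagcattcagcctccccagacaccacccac

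The Kcnj8 window holds 1 GC box and none of the other motifs, and 66.8% of its bases are G or C, against a median of 51.2% over the 33469 windows of the table. The Acta2 window holds 2 CArG boxes with 1 letter free, the nearer of which overlaps its RBPJ site, and 1 forkhead site. The Atp13a5 window, 216 bases long because the rest lies inside the gene record, holds 1 forkhead site and 1 CArG box with 1 letter free. Over all windows of 250 bases, 30.5% hold the GC box, 22.1% the RBPJ site, 12.1% the forkhead site and 8.08% the CArG box with 1 letter free. These are matches of letters only.

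The other 3 markers of the label were not used by the rule, and all were high. They followed its genes, as Pth1r stood at 1152 raw CPM in KATP pericytes with all 3 and at 460 with 2. In low-contractile cells with 1 it stood at 83.3. The tests below are thus no independent support for the name of the cells. Higd1b, a mitochondrial protein gene of the hypoxia-inducible domain family, stood at 1947, 1884 and 2257 scaled CPM in KATP pericytes and at 335, 244 and 221 in intermediate mural cells. It was found in 95.9% of KATP pericytes. Vtn, the matrix protein vitronectin, stood at 3534, 3312 and 3637 against 839, 588 and 569, and was found in 96.7%. Pth1r, the parathyroid hormone receptor, stood at 639, 595 and 848 against 68.3, 71.4 and 65.1, and was found in 89.8%. No library of one population overlapped with a library of the other for these genes, a description without the share over all genes. The log2 difference from intermediate mural cells was 2.96 ± 0.19 (SE) for Higd1b, 2.43 ± 0.12 for Vtn and 3.34 ± 0.14 for Pth1r (adjusted p 0.000479, 1.74e-05 and 2.83e-05, edgeR). The markers of brain pericytes were thus present, whereas the place of the cells along the vessel was not measured, so that a capillary position has no test here.

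**Figure D1:**
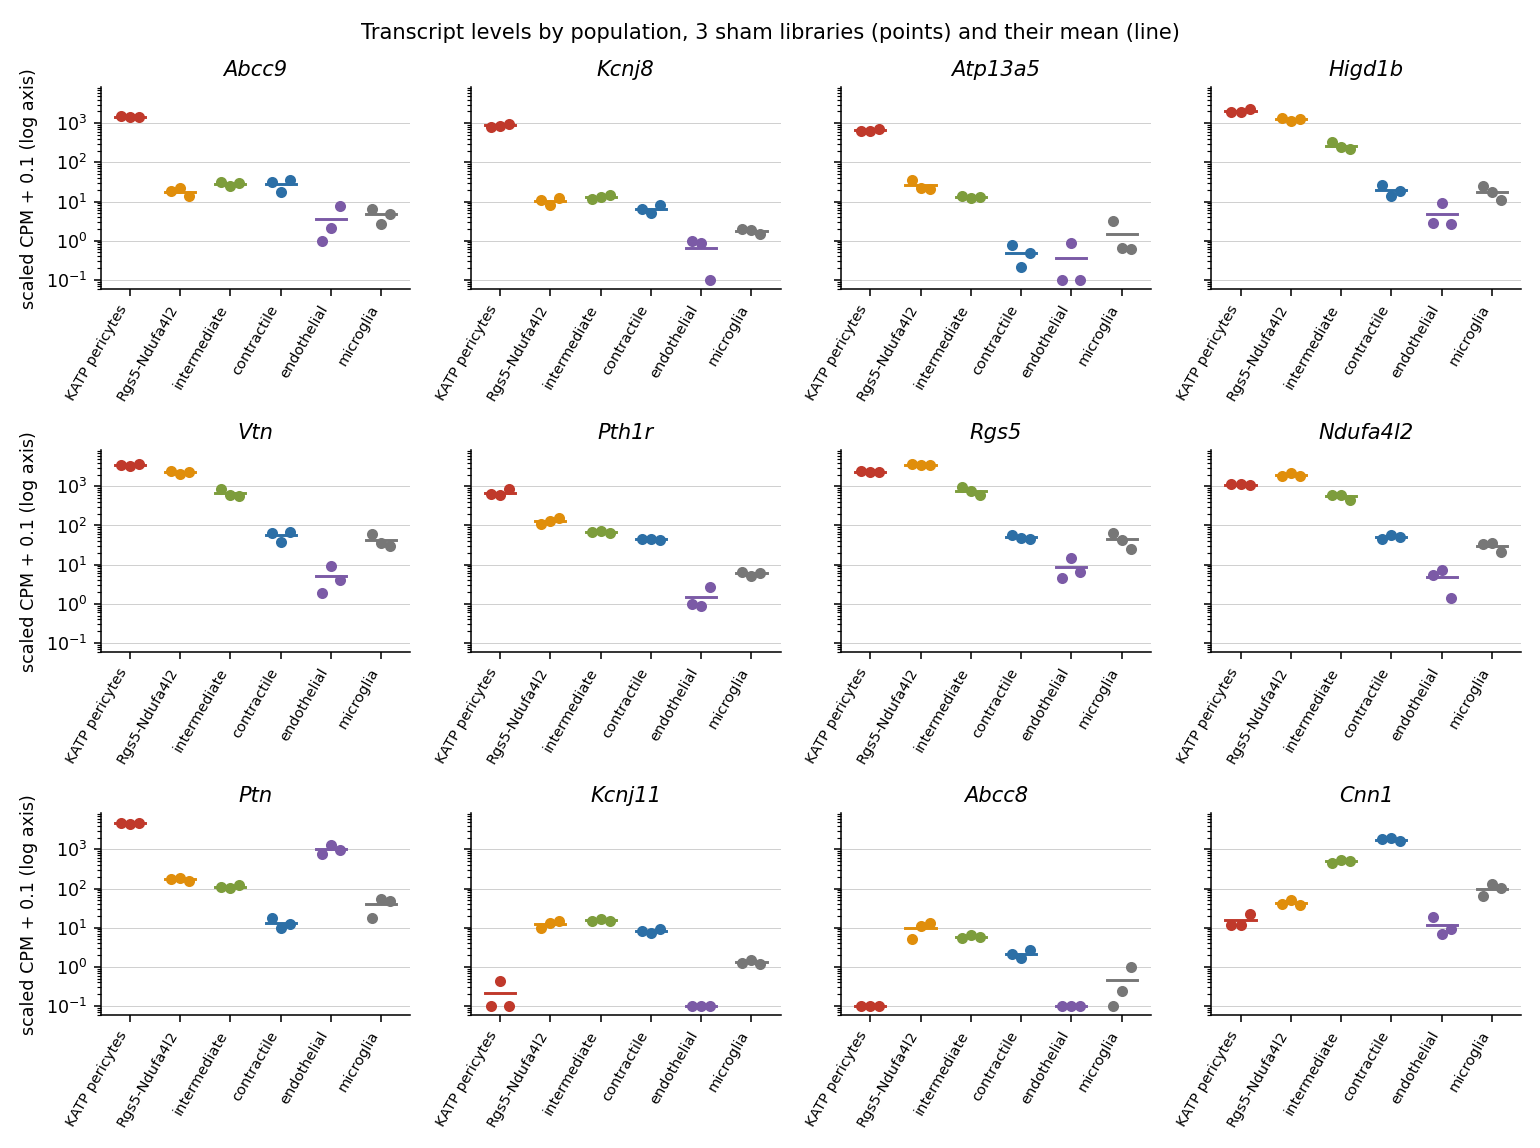
Scaled CPM plus 0.1 on a log axis for 12 genes in 6 sham populations, with 1 point per library and a line at the mean. Abcc9, Kcnj8, Atp13a5 and Ptn are highest in KATP pericytes, Rgs5 and Ndufa4l2 are highest in the Rgs5-Ndufa4l2 cells, and Kcnj11 and Abcc8 are near 0 in KATP pericytes. The first 3 genes were used to choose the cells.

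Rgs5-Ndufa4l2 cells resembled KATP pericytes in some of these markers and not in others. They held Higd1b at 1270 ± 113 and Vtn at 2272 ± 154 scaled CPM, but Pth1r at 133 ± 25.1 and Ptn, the growth factor pleiotrophin, at 172 ± 16.8 against 4744 ± 140 in KATP pericytes. Rgs5, a regulator of G protein signalling, and Ndufa4l2, a hypoxia-inducible subunit-like gene of the respiratory chain, were higher in the Rgs5-Ndufa4l2 cells, by whose levels they had been chosen. Rgs5 stood there at 3621, 3425 and 3482 scaled CPM, against 2497, 2319 and 2301 in KATP pericytes.

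Most KATP pericytes carried all 3 genes of the rule. All 3 were found in 1065 cells (69.0%), Abcc9 with Kcnj8 alone in 339 (22%), Abcc9 with Atp13a5 in 101 (6.55%) and Kcnj8 with Atp13a5 in 38 (2.46%). The cells with Abcc9 and Kcnj8 alone differed most from the rest by their markers: Pth1r was found in 69.0% of them against 96.4% of cells with all 3, and Dcn, the fibroblast gene decorin, in 29.5% against 1.13%. Their median depth was 4759 UMIs against 3643. Below the rule, 366 low-contractile sham cells held exactly 1 of the 3 genes, and Higd1b was found in 40.2% of these and Dcn in 34.7%. In the 6789 low-contractile cells with none of the 3 genes Higd1b was found in 2.45%.

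The contractile share was low throughout, with a median of 0.0940% and quartiles of 0.0516% and 0.165%. Of 1822 sham cells with at least 2 of the 3 genes, 279 were kept out by their contractile share. Abcc9 stood at 2323 raw CPM in the 521 cells at 0.1% to 0.25% and at 475 in the 40 cells at 0.75% to 1%. Rgs5 did not follow it within the rule, with 2786 to 3655 raw CPM in every class under 1%. Just inside the limit, the 40 cells at 0.75% to 1% held Higd1b at 2146 and Pth1r at 445 raw CPM. Just outside it, the 31 cells in the next class of the same width held them at 1645 and 351. Both markers were thus present on each side of the limit, in few cells. All sham cells past the filters numbered 182 and 138 in these 2 classes. Cells of a class come from 3 libraries and are not replicates.

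**Figure D2:**
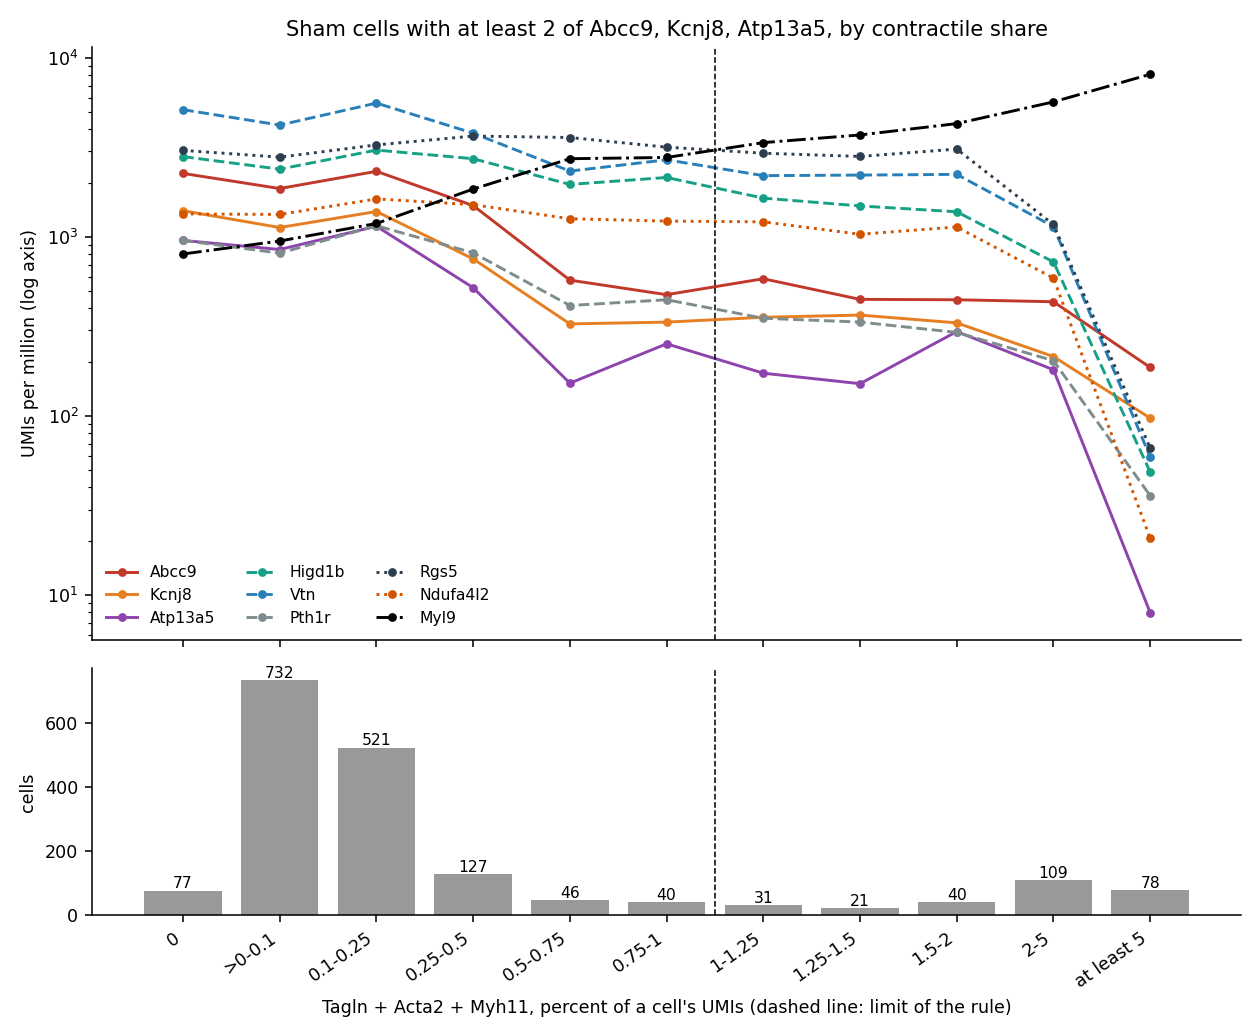
raw CPM on a log axis for 9 genes (top) and numbers of cells (bottom) in sham cells with at least 2 of Abcc9, Kcnj8 and Atp13a5, by the share of a cell's UMIs from Tagln, Acta2 and Myh11. The dashed line is the limit of the rule at 1%. Abcc9 is lower from 0.5% on, Rgs5 stays level up to 2%, and Myl9 rises throughout.

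A minority of KATP pericytes also carried markers of another cell class, by a rule set after the data had been seen. These were 140 cells (9.07%) with 20.7% of the summed UMIs, 29 of them with a doublet score above 0.25. Fibroblast markers were carried by 59 cells (34, 20 and 5 in sham 1 to 3), microglia markers by 49, endothelial markers by 15, astrocyte markers by 14, choroid plexus markers by 9, all in sham 2, and oligodendrocyte markers by 5. The 59 cells with fibroblast markers held Abcc9 at 327 and Atp13a5 at 18.1 raw CPM, and Dcn at 6601. The 1403 cells without markers of another class held Abcc9 at 2192, Kcnj8 at 1313, Atp13a5 at 1021 and Dcn at 44.6. Counts and calls that moved most without the 140 cells are given both ways below. Only KATP pericytes lost such cells there, while the populations beside them kept theirs, so that this setting is uneven. Of 8 microglia markers tested against intermediate cells, 0 were called lower with the 140 cells and 8 without them.

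The summed levels of other classes' markers moved between libraries in the same way. The 8 fibroblast markers summed to 6175 to 12911 scaled CPM in KATP pericytes, 5821 to 6904 in intermediate and 6629 to 6971 in contractile cells. Much of these sums was Mgp, 1 of the 8, which alone had a mean of 7753 ± 2496 in KATP pericytes and 5511 in contractile cells. The sums are thus no measure of fibroblast transcripts by themselves. The 8 microglia markers summed to 207 to 787, 267 to 677 and 43.0 to 124, and the 7 endothelial markers in the files to 919 to 1111, 552 to 676 and 493 to 518. The 5 choroid plexus markers ranged from 169 to 19554 scaled CPM in KATP pericytes, highest in sham 2, from 96.9 to 4582 in intermediate and from 93.1 to 2920 in contractile cells. Each of these markers had at least 1 UMI in KATP pericytes. Their part in the gene differences below was not tested beyond leaving out the 140 cells.

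Tests across all genes asked which transcripts set KATP pericytes apart from contractile cells and from intermediate mural cells, with the library as a block and p-values adjusted over all genes tested. Against contractile cells, 10810 genes were tested, of which 32.9% were higher in KATP pericytes at an adjusted p under 0.05 and 31.2% were lower, 64.1% in all. Against intermediate mural cells, 11399 genes were tested, of which 23.6% were higher and 25.7% were lower, 49.3% in all. These shares are the background for every list below, since a list with such shares is like any other. The share of all genes without overlap of libraries is not given, so that a lack of overlap is a description only. Log2 differences are positive where KATP pericytes were higher.

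The split into higher and lower genes depends on the scaling. Without TMM factors, 7591 genes were higher and 1235 lower than in contractile cells, in place of 3557 and 3377, and the median difference of all genes was 0.83 instead of 0.05. Against intermediate mural cells the counts were 6346 and 1291 in place of 2686 and 2932, and the median 0.55 instead of 0.03. Differences below are thus relative to a typical gene, and lists are read against the median of all genes. Without the factors the median turned from negative to positive for calcium, chloride and TRP channels and for respiratory isoforms in both comparisons, and for cyclic nucleotide, crosstalk and transcription factor genes against intermediate cells. With cells limited to 10% mitochondrial UMIs, 32 of 126 named genes moved by over 1.5 times against contractile cells and 41 of 125 against intermediate cells. All of these kept the sign of their difference. The median shift of the named genes was 0.09 and -0.01.

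**Figure D3:**
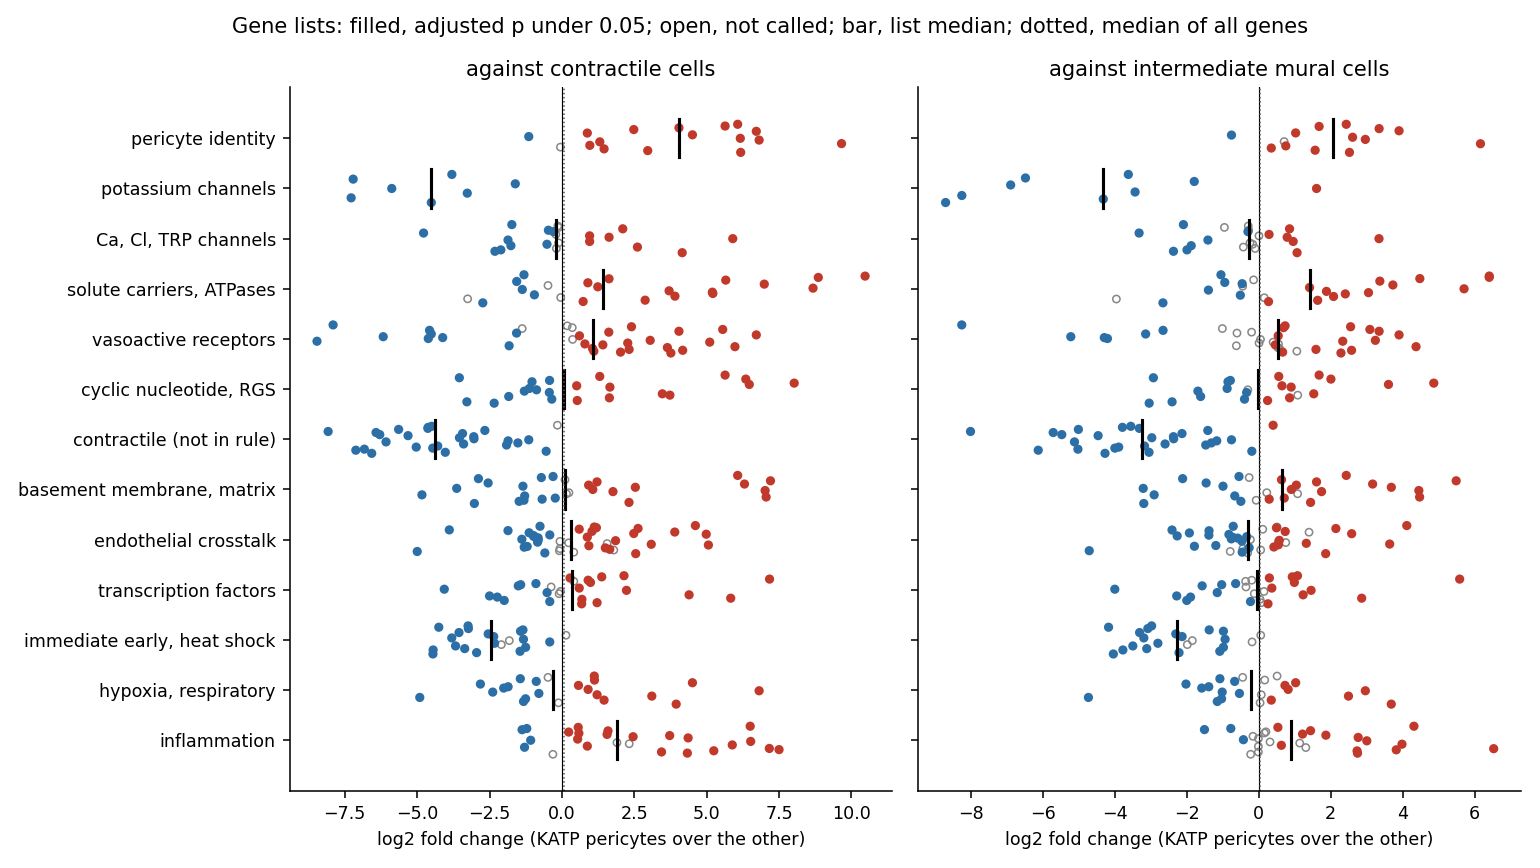
Log2 differences of the members of 13 gene lists between KATP pericytes and contractile cells (left) or intermediate mural cells (right). Filled points passed an adjusted p of 0.05 (red higher, blue lower), open points did not, bars mark list medians and the dotted line the median of all genes. Pericyte identity genes lie to the right, and contractile, potassium channel and immediate early genes to the left. Potassium channel genes with almost no UMIs in KATP pericytes could lie only to the left. Likewise, carriers with almost no UMIs in the other population could lie only to the right.

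Pericyte identity genes were higher as a list. Of 17 tested against contractile cells, 15 were higher and 1 was lower, with a median of 4.04, and of 14 tested against intermediate cells 12 were higher and 1 lower, with a median of 2.05. Anpep, the membrane aminopeptidase CD13, stood at 247, 194 and 232 scaled CPM against 48.7, 36.0 and 34.5 in intermediate cells, a log2 difference of 2.52 ± 0.09 (adjusted p 1.78e-07). P2ry14, a receptor for UDP-glucose, stood at 129, 117 and 169 against 9.57, 6.63 and 12.3, a difference of 3.90 ± 0.10. For both genes the lowest KATP pericyte library lay above the highest intermediate library, again without the share over all genes. Ggt1, the glutathione-cleaving gamma-glutamyltransferase of brain microvessels, showed the largest gap of the list at 111, 113 and 106 against 1.38, 1.56 and 1.68, a difference of 6.16 ± 0.11 (adjusted p 1.42e-08). It was found in 36.9% of KATP pericytes.

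The platelet-derived growth factor receptor Pdgfrb, the receptor through which endothelium recruits pericytes, stood at 1651, 1508 and 1610 scaled CPM against 300, 329 and 272 in contractile cells (2.48 ± 0.09, adjusted p 4.76e-10). It helped to choose the intermediate cells and has no test there. The proteoglycan gene Cspg4, widely used to stain pericytes, was not called, at 499 ± 31.0 scaled CPM in KATP pericytes and 543 ± 15.5 in contractile cells (-0.05 ± 0.07, adjusted p 0.560), but it was called higher without scaling factors (0.73, adjusted p 1.58e-06), without the 140 cells (0.20, 0.00834), in thinned cells (0.20, 0.0171) and with all 3 genes of the rule (0.24, 0.0285). The adhesion molecule Mcam, at 559 ± 81.4 against 953 ± 109 in intermediate cells, was the member of the list that was lower in both comparisons (-0.76 ± 0.08 against intermediate and -1.15 ± 0.08 against contractile cells). Rgs5 and Ndufa4l2 were higher than in intermediate cells by 1.68 ± 0.11 and 1.02 ± 0.08, less than the other members named above. With cells limited to 10% mitochondrial UMIs these became 0.84 and 0.40, still called.

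The other potassium channel genes that could be tested were nearly all lower. Several, such as Kcnj11 and Kcnma1 with at most 3 UMIs in KATP pericytes, passed the filter on low counts only through the other population. Such genes could only come out lower, so that the counts and medians below are partly fixed by the filter. Of 7 tested against contractile cells all 7 were lower, with a median of -4.51, and of 9 tested against intermediate cells 8 were lower and 1 was higher, with a median of -4.32. The higher one was Kcne4, an accessory subunit found in 0.972% of KATP pericytes. No gene of the list was called higher by DESeq2, without the 140 cells or in thinned cells. Kcnj11, the pore subunit that can replace Kcnj8, had 1 UMI in all KATP pericytes together, against 688 in intermediate cells, which was 135 times higher there (95% exact interval 24.2 to 5350). Abcc8, the partner of Kcnj11, had 0 UMIs in KATP pericytes and 263 in intermediate cells, at least 17.2-fold higher there with the floor set at 3 counts over the 3 libraries. In contractile cells Kcnj11 stood at 8.12 ± 0.95 and Abcc8 at 2.05 ± 0.529 scaled CPM. In intermediate cells Kcnj11 was found in 10.6% and Abcc8 in 4.31% of the cells, beside Abcc9 in 6.43% and Kcnj8 in 4.47%. Whether single cells held both pairs was not tested.

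Kcnma1 and Kcnmb1 encode the pore and the accessory subunit of the large-conductance calcium-activated potassium channel of smooth muscle. Kcnma1 had 3 UMIs in KATP pericytes and 1797 in contractile cells, 164 times higher there (95% exact interval 56.0 to 795). Kcnmb1 stood at 1.46 ± 0.662 scaled CPM against 18.5 ± 1.1 in intermediate cells (-3.62 ± 0.26, adjusted p 7.99e-06). Of the voltage-gated channels, Kcna5 had 0 UMIs in KATP pericytes and 191 in intermediate cells, at least 12.5-fold higher there, and Kcna2 stood at 2.65 ± 1.19 against 53.2 ± 5.76. Kcnk3, an acid-sensitive leak channel, kept a measurable level at 33.9, 24.1 and 30.0 scaled CPM against 95.7, 96.3 and 117 (-1.79 ± 0.11).

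Calcium, chloride and TRP channel genes went in both directions. Of 21 tested against intermediate cells 6 were higher and 7 lower, and against contractile cells 7 and 9. Ano1, the calcium-activated chloride channel that depolarises pericytes, stood at 217, 192 and 202 scaled CPM against 112, 106 and 80.3 in intermediate and 14.4, 10.7 and 11 in contractile cells (1.06 ± 0.10 and 4.15 ± 0.09). Among calcium release channels the isoforms differed. Itpr2 was higher than in intermediate cells, at 25.6 ± 1.87 against 2.55 ± 0.339 (3.34 ± 0.18), and Itpr1 was lower, at 89.0 ± 12.8 against 239 ± 11 (-1.41 ± 0.07). The calcium pump of the sarcoplasmic reticulum, Atp2a2, stood at 236, 244 and 258 against 1220, 1343 and 1295 (-2.37 ± 0.06, adjusted p 4.46e-08). Cacna1c, the L-type calcium channel, was not called in either comparison (30.7 ± 3.33 against 33.2 ± 0.695 in intermediate cells), and its sign turned without scaling factors in both, to 0.42 against intermediate and 0.59 against contractile cells. The T-type channel Cacna1h was lower, at 22.1 ± 3.46 against 81.9 ± 0.936 (-1.88 ± 0.11).

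Transporters of the solute carrier family were among the transcripts with the widest gap. Of 23 tested against intermediate cells 13 were higher and 6 lower, with a median of 1.41, and against contractile cells 14 of 22 were higher and 5 lower, with a median of 1.43. Some, such as Slc6a20 with 0 UMIs in contractile cells, passed the filter on low counts only through KATP pericytes. They could only come out higher, so that the counts and medians are partly fixed by the filter. Without the 140 cells with markers of another class the medians were 0.83 and 3.11, with 10 higher and 8 lower, and 13 and 7. In thinned cells the median against intermediate cells was 0.07, with 10 higher and 5 lower of 20. Slc22a8, an organic anion transporter of brain vessels, stood at 333, 309 and 349 scaled CPM against 5.82, 7.90 and 5.38 in intermediate cells (5.71 ± 0.16, adjusted p 2e-06). Endothelial cells held it at 146 scaled CPM and Rgs5-Ndufa4l2 cells at 3.5 ± 2.55. Slc6a13, a carrier of GABA and taurine, stood at 188, 135 and 177 against 2.22, 1.44 and 2.31 (6.40 ± 0.10, adjusted p 9.61e-09), with 0.393 in endothelial cells. These carriers therefore separated KATP pericytes from Rgs5-Ndufa4l2 cells as widely as from the other mural cells, a comparison without a test.

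Slc6a20, a proline transporter, had 221 UMIs in KATP pericytes and 0 in contractile cells, at least 269-fold higher with the floor at 3 counts over the 3 libraries. Slc30a10, a manganese exporter, stood at 478, 402 and 536 scaled CPM against 38, 34.8 and 34.6 in intermediate cells (3.73 ± 0.09, adjusted p 4.46e-08). Unlike the previous carriers it had an intermediate level of 134 ± 11.7 in Rgs5-Ndufa4l2 cells. The folate carrier Slc19a1 and the creatine transporter Slc16a12 showed the same order, at 90.2 ± 11.6 and 46.0 ± 5.44 in KATP pericytes, 27.8 ± 4.73 and 22.2 ± 4.16 in Rgs5-Ndufa4l2 cells and 11 ± 1.39 and 8.76 ± 0.690 in intermediate cells. Slc12a2, the sodium-potassium-chloride cotransporter that loads cells with chloride, stood at 434, 436 and 481 against 127, 102 and 96.6 (2.08 ± 0.11). Lower members were Slc38a2, a neutral amino acid carrier (-0.94 ± 0.07), and Atp10a, a lipid flippase (-2.66 ± 0.15), both against intermediate cells.

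**Figure D4:**
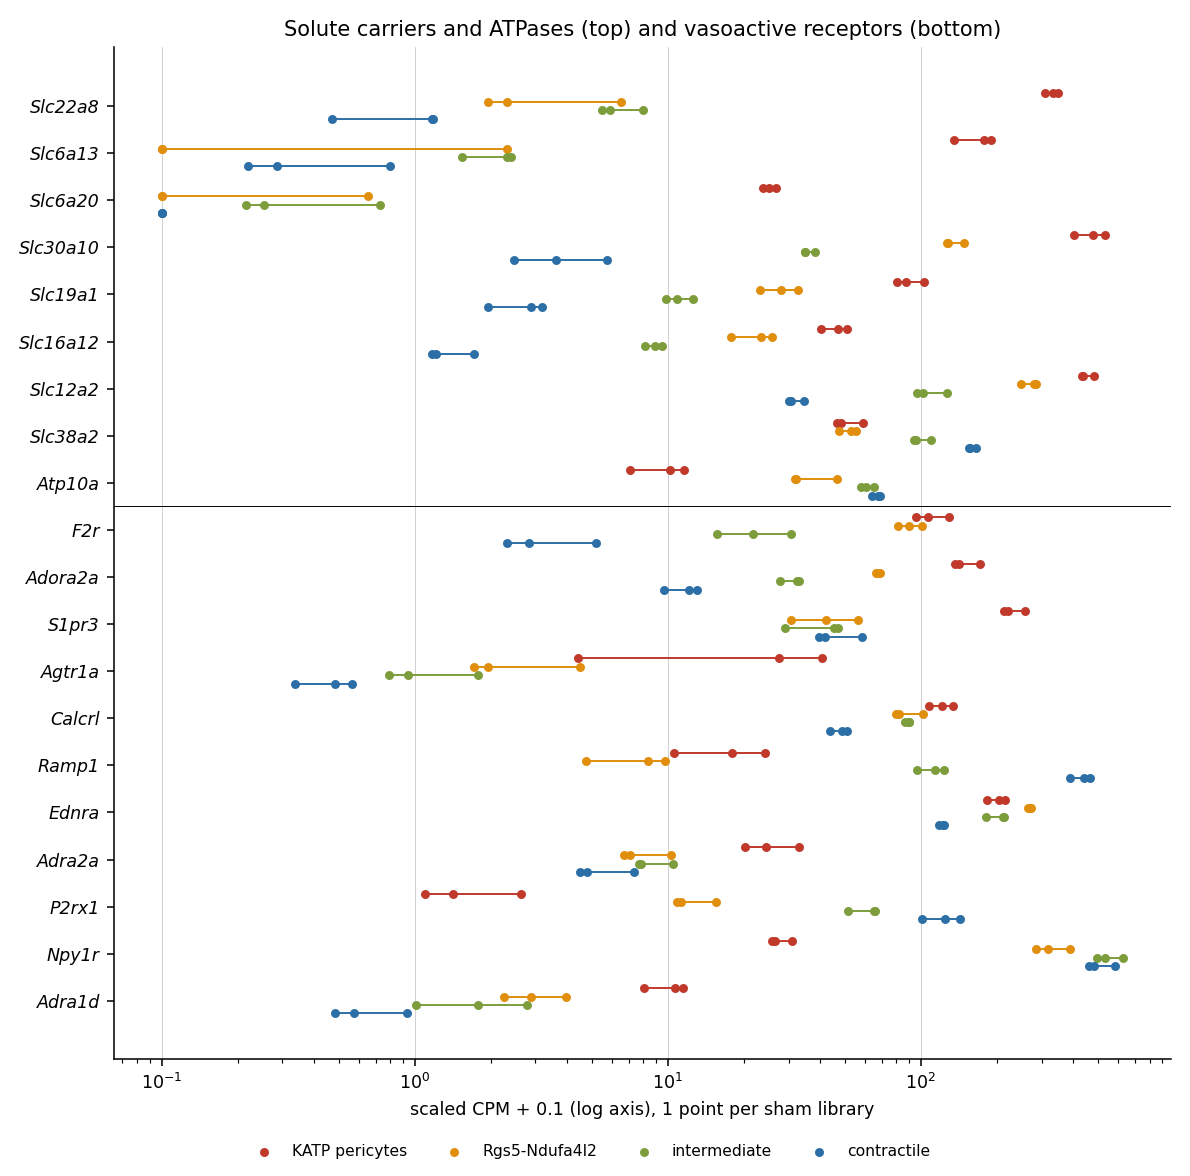
Scaled CPM plus 0.1 on a log axis for 9 solute carriers and ATPases (top) and 11 vasoactive receptors (bottom) in 4 sham populations, with 1 point per library. Slc22a8, Slc6a13 and Slc6a20 lie far to the right in KATP pericytes alone among the 4, while Ramp1, P2rx1 and Npy1r lie to the left of their levels in intermediate and contractile cells.

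Receptors for vasoactive signals were higher in part. Of 32 tested against contractile cells 19 were higher and 9 lower, with a median of 1.08, and against intermediate cells 15 and 6, with a median of 0.54. Without the 140 cells the counts were 15 higher and 10 lower of 30, with a median of 0.71, and 14 higher and 11 lower of 31, with a median of 0.59. S1pr3, a sphingosine 1-phosphate receptor, stood at 259, 221 and 213 scaled CPM against 45.3, 46.8 and 28.9 in intermediate and 39.4, 58.6 and 41.5 in contractile cells (2.55 ± 0.13 and 2.4 ± 0.18). Adora2a, the adenosine receptor that raises cyclic AMP, stood at 137, 141 and 170 against 32.8, 27.7 and 32.4 (2.28 ± 0.09, adjusted p 1.86e-07). F2r, the thrombin receptor, stood at 129, 95.9 and 106 against 30.6, 21.6 and 15.5 (2.33 ± 0.15). For these 3 receptors every KATP pericyte library lay above every intermediate library, a description without the share over all genes. Calcrl and Ramp1 encode the 2 partners of the receptor for calcitonin gene-related peptide, a vasodilator that signals through cyclic AMP. They diverged: Calcrl was higher, at 121 ± 12.8 against 88.7 ± 2.05 (0.46 ± 0.07), and Ramp1 was lower, at 17.8, 24.1 and 10.5 against 96.8, 123 and 114 (-2.66 ± 0.21, adjusted p 0.000537). With cells limited to 10% mitochondrial UMIs the call of Ramp1 was lost (-2.22, adjusted p 0.0585).

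Constrictor receptors were split. Ednra, the endothelin receptor of mural cells, was at 215, 204 and 182 scaled CPM in KATP pericytes and 210, 213 and 181 in intermediate cells (0.01 ± 0.06, adjusted p 0.930), and the libraries of both overlapped. It was called higher without the 140 cells (0.19, adjusted p 0.0144) and without scaling factors (0.53, 0.00011). P2rx1, an ATP-gated cation channel of arteriolar muscle, stood at 1.32, 1 and 2.53 against 65.0, 51.4 and 65.7 (-5.22 ± 0.19, adjusted p 1.55e-07). Npy1r, a receptor for the sympathetic transmitter neuropeptide Y, stood at 31.0, 26.4 and 25.6 against 497, 531 and 629 (-4.29 ± 0.12). In microglia cells P2rx1 was at 16.6 and Npy1r at 47.3 scaled CPM, and in endothelial cells at 1.70 and 5.42. After thinning to 3000 UMIs, P2rx1 was found in 0.5% of KATP pericytes against 3.25% of microglia cells, and Npy1r in 10.5% against 4.86%. The adrenergic receptors Adra1d and Adra2a were higher, at 9.95 ± 1.79 against 1.75 ± 0.888 and 25.8 ± 6.50 against 8.58 ± 1.59. Agtr1a, an angiotensin receptor, varied between libraries at 40.5, 27.4 and 4.33 scaled CPM and was found in 7.39% of the cells. It was above intermediate cells in every library (4.37 ± 0.51), and the difference was 1.64 with cells limited to 10% mitochondrial UMIs. In cells with fibroblast markers it stood at 83.5 raw CPM, and in those without markers of another class at 28.3.

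Cyclic nucleotide and G protein regulators went both ways, with 11 higher and 11 lower of 22 against contractile cells and 10 and 10 against intermediate cells. Gucy1a2, a subunit of the nitric oxide receptor guanylate cyclase, stood at 130, 109 and 125 scaled CPM against 70.7, 65.1 and 66.6 in intermediate cells (0.86 ± 0.07). Mrvi1, a partner of the cyclic GMP kinase that restrains calcium release in smooth muscle, was lower at 129, 96.6 and 112 against 353, 347 and 339 (-1.62 ± 0.08). Pde8b, a cyclic AMP phosphodiesterase, stood at 27.5 ± 2.81 against 0.940 ± 0.0336 (4.86 ± 0.21, adjusted p 4.12e-07). The adenylate cyclase genes Adcy3 and Adcy5 were lower, at 32.0 ± 12.3 against 263 ± 4.66 and 12 ± 0.860 against 64.8 ± 6.78. Rgs4 was modestly higher (0.56 ± 0.11) and Rgs2 lower (-2.93 ± 0.13), both regulators that shorten receptor signals.

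Contractile genes that the rule did not use were lower almost without exception, 27 of 28 against contractile cells with a median of -4.38, and 27 of 28 against intermediate cells with a median of -3.25 and 1 higher. Myl9, the regulatory myosin light chain, stood at 1054, 948 and 825 scaled CPM against 7579, 7298 and 7465 in intermediate and 11948, 10979 and 11508 in contractile cells (-2.97 ± 0.08 and -3.54 ± 0.09). Cnn1, calponin, stood at 11.9, 11.7 and 22 against 440, 544 and 496 (-5.03 ± 0.21), and Lmod1, leiomodin, at 25.1, 24.1 and 19.8 against 736, 837 and 866 (-5.12 ± 0.11). Des, the muscle filament protein desmin, was at 214 ± 24.8 against 1949 ± 184. Microglia cells held Cnn1 at 99.6, Lmod1 at 108 and Des at 288 scaled CPM, and endothelial cells at 11.3, 10.9 and 34.4. After thinning, Des was found in 50.3% of KATP pericytes against 18.1% of microglia cells, whereas Cnn1 was found in 5.83% against 8.88% and Lmod1 in 6.58% against 8.78%.

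Vcl, vinculin, a linker of actin to adhesion sites, was the gene that was higher than in intermediate cells, at 626, 551 and 596 against 501, 447 and 414 (0.40 ± 0.07, adjusted p 0.00120). Against contractile cells it was not called (-0.16 ± 0.08, adjusted p 0.0897), and the sign turned without scaling factors (0.62). Cald1, caldesmon, stood at 1989 ± 70.6 scaled CPM in KATP pericytes, 2300 ± 110 in intermediate and 3053 ± 147 in contractile cells, and was found in 99.6% of KATP pericytes. It was lower by the test (-0.19 ± 0.06 and -0.54 ± 0.07), but without scaling factors the sign turned in both (0.33 and 0.23). Against intermediate cells its call was also lost without sham 1 (adjusted p 0.120) and without sham 2 (0.386). KATP pericytes were chosen by low Tagln, Acta2 and Myh11, and intermediate and contractile cells by higher levels of the same 3 genes. This bears on genes expressed together with these 3, so that the counts of lower contractile genes are partly fixed by the grouping. The 3 genes were at 25440 ± 811, 11674 ± 856 and 5075 ± 246 in intermediate cells.

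Basement membrane and matrix genes went both ways, 14 higher and 9 lower of 27 against intermediate cells and 11 and 13 against contractile cells. The laminin chains diverged. Lama2 stood at 192, 156 and 160 scaled CPM against 9.49, 7.03 and 7.06 in intermediate cells (4.45 ± 0.08, adjusted p 1.42e-08), and Lama5 at 27.4, 26.4 and 20.9 against 226, 249 and 225 (-3.21 ± 0.09, adjusted p 4.80e-08). Lamb1 (3.68 ± 0.11) and Lamc3 (3.16 ± 0.12) were higher together with Lama2. Nid1, a nidogen that links laminin to collagen networks, was at 409, 346 and 339 against 130, 110 and 123 (1.61 ± 0.07), and its relative Nid2 at 11.4 ± 3.62 against 0.244 ± 0.0989. Agrn, the proteoglycan agrin, was at 269 ± 17.9 against 101 ± 11.1 (1.44 ± 0.07), and the fibrillar collagen gene Col5a3 at 80.4 ± 4.15 against 3.71 ± 1.49 (4.47 ± 0.17). The main vessel collagen gene Col4a1 was slightly higher than in intermediate cells (669 ± 28.5 against 553 ± 8.96, 0.29 ± 0.06), a call lost without sham 1. It was lower than in contractile cells (-0.68 ± 0.07), where the sign turned without scaling factors (0.10).

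Among the lower members, Eln, elastin, stood at 55.4, 57.8 and 31.0 scaled CPM against 1303, 1588 and 1379 in contractile cells (-4.83 ± 0.21), and Sparcl1, an anti-adhesive matrix protein, at 684, 715 and 816 against 5610, 5787 and 5755 (-2.88 ± 0.08). Fn1, fibronectin, rested on the cells with markers of another class. It stood at 111, 48.5 and 27.8 scaled CPM and was higher than in intermediate cells (1.75 ± 0.12), but the difference was -0.86 without the 140 cells and -0.39 among cells with all 3 genes of the rule. With no replicate block its call was lost (adjusted p 0.0945). Without the 140 cells the list held 13 higher and 11 lower genes of 27 against intermediate cells, with a median of -0.12 in place of 0.63.

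Of 39 genes of pericyte and endothelial crosstalk tested against intermediate cells, 11 were higher and 17 lower, and of 40 against contractile cells 17 were higher and 16 lower. Igf1, an insulin-like growth factor, stood at 183, 181 and 197 scaled CPM against 18.1, 14.6 and 13.1 in intermediate cells (3.64 ± 0.11, adjusted p 2.60e-07), and was found in 47.5% of the cells. Vegfc, a growth factor of lymphatic and venous endothelium, was at 18 ± 0.712 against 1.03 ± 0.185 (4.11 ± 0.26), and the receptor Tgfbr2 at 25.5 ± 8.49 against 5.70 ± 0.713 (2.14 ± 0.17). Targets of the Notch receptor, which joins mural and endothelial cells, diverged. Heyl was higher, at 282, 268 and 268 against 187, 204 and 177 (0.54 ± 0.07). Nrarp and Hey2 were lower, Nrarp at 101, 114 and 96.4 against 511, 562 and 444 (-2.27 ± 0.06) and Hey2 at 84.2 ± 1.19 against 196 ± 29.4 (-1.19 ± 0.10). Cdh13, an adhesion protein, and Tgfb3, a growth factor, were lower by -4.71 ± 0.29 and -2.41 ± 0.11.

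Of 26 transcription factor genes 10 were higher and 9 lower than in intermediate cells, and 13 and 9 than in contractile cells. Zic1 (46.4 ± 3.61 scaled CPM against 22.2 ± 0.567), Tbx18 (84.3 ± 9.15 against 42.9 ± 3.1) and Zeb2 (120 ± 9.87 against 63.7 ± 4.2) were higher, by 1.08 ± 0.09, 0.99 ± 0.10 and 0.93 ± 0.07. Myocd, the coactivator that switches on smooth muscle genes, stood at 2.31, 2.34 and 2.89 against 41.1, 36.3 and 45.1 (-4.00 ± 0.16, adjusted p 2.57e-07), while its partner Srf kept 43.3 ± 2.28 against 89.5 ± 3.45 (-1.03 ± 0.08). In microglia cells Myocd was at 4.24 and Srf at 26.2. Foxc2 was lower as well (31.3 ± 2.64 against 128 ± 25). Epas1, the hypoxia-inducible factor abundant in pericytes and endothelium, was at 1136, 1057 and 941 in KATP pericytes and 1095, 1000 and 922 in intermediate cells (0.07 ± 0.06, adjusted p 0.347). It was called higher without the 140 cells (0.27, adjusted p 0.000756) and without scaling factors (0.59, 2.66e-05).

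Isoforms of the respiratory chain were not exchanged for one another in a simple way, with 7 higher and 10 lower of 22 genes against intermediate cells and 10 and 10 against contractile cells. Ndufa4l2 was higher and its ubiquitous counterpart Ndufa4 lower, at 141, 260 and 129 scaled CPM against 680, 757 and 652 (-2.02 ± 0.20). Cox4i2, the cytochrome oxidase isoform of lung and pericytes, was higher by 0.35 ± 0.06, a call lost with no replicate block, and Cox4i1 was lower, at 906, 928 and 864 against 2085, 2036 and 1945 (-1.15 ± 0.06). The same held for Higd1b, above, and Higd1a (71.3 ± 12.3 against 145 ± 3.65, -1.02 ± 0.09). The lactate dehydrogenase genes also diverged. Ldhb was at 255, 366 and 289 against 183, 203 and 165 (0.73 ± 0.08), and Ldha at 150, 194 and 160 against 431, 441 and 457 (-1.39 ± 0.08).

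Immediate early and heat shock genes, which rise within minutes of handling, were lower as a list. Of 22 tested, 19 were lower than in contractile cells (median -2.45) and 18 lower than in intermediate cells (median -2.26). Without scaling factors 2 were higher and 17 lower in each comparison. Junb stood at 387, 395 and 218 scaled CPM against 2999, 3734 and 3043 in intermediate cells (-3.31 ± 0.20), and Dusp1 at 108, 146 and 92.7 against 1466, 1835 and 1459 (-3.78 ± 0.08, adjusted p 1.91e-08). Egr1, Atf3 and Hspb1 were lower by -3.11 ± 0.22, -4.04 ± 0.28 and -3.19 ± 0.14. Fos, at 500, 560 and 155 against 3718, 4726 and 3997 (-3.5 ± 0.57, adjusted p 0.0372), lost its call without sham 1 (adjusted p 0.0698) and without sham 2 (0.133), and likewise against contractile cells (0.0745 and 0.119).

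The level of these genes also differed among the populations that were not compared by a test. Summed over 7 immediate early genes, KATP pericytes held 2203, 2347 and 1126 raw CPM in sham 1 to 3. Endothelial cells held 1339 to 2632, microglia cells 4892 to 6120, Rgs5-Ndufa4l2 cells 2778 to 7492, intermediate cells 9526 to 12176 and contractile cells 9292 to 12414. The contractile and intermediate cells were thus the ones with high values, and KATP pericytes lay near endothelial cells.

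Genes of inflammation were higher in part, 18 of 25 against contractile cells with 4 lower and 13 of 26 against intermediate cells with 3 lower. Without the 140 cells with markers of another class the counts were 14 higher and 5 lower of 24, with the median at 0.81 in place of 1.90, and 14 higher and 9 lower of 24. Ccl19, a chemokine that draws dendritic cells and T cells, stood at 200, 132 and 107 scaled CPM against 23.3, 25.2 and 17.1 in intermediate cells (2.73 ± 0.15), and was found in 36.0% of KATP pericytes. With cells limited to 10% mitochondrial UMIs this became 1.57 and was not called (adjusted p 0.116). Against contractile cells its call was lost without sham 3 (adjusted p 0.113), and its value moved from 5.24 to 6.53 without sham 1. Il34, a ligand of the microglial growth factor receptor, was at 40.2, 29.7 and 41.1 against 13.2, 8.24 and 9.50 (1.87 ± 0.13). Nfkbia, the inhibitor that NF-kB switches on, was at 280, 214 and 358 against 104, 99.1 and 109 (1.44 ± 0.12), and the receptor Il1r1 at 13.7 ± 2.51 against 2.08 ± 0.753 (2.76 ± 0.29). Ccl2, a chemokine for monocytes, was uneven at 112, 52.8 and 10.1 scaled CPM, with 418 raw CPM in cells with fibroblast markers and 37.1 in those without markers of another class.

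The genes with the largest differences were named by a fixed rule: an adjusted p under 0.05, a log2 difference of at least 1, at least 50 scaled CPM in the higher population and no overlap of libraries. Against contractile cells 360 genes passed it upward, and the 10 with the largest differences were Inmt, Slc5a5, Ggt1, Gng14, Iqsec3, Slc6a13, Hic1, Slc22a8, Ptn and Dpt. Against intermediate cells 265 passed it, and the first 10 were S100a8, Slc6a13, Gng14, Ggt1, Cyp4b1, Iqsec3, Slc22a8, Smpd3, Ptn and Hic1. Slc6a13, Gng14, Ggt1, Iqsec3, Slc22a8, Ptn and Hic1 stood on both lists.

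Ptn was the most abundant of them, at 4846, 4585 and 4802 scaled CPM against 108, 104 and 123 in intermediate cells and 17.1, 9.71 and 12.2 in contractile cells (5.43 ± 0.08 and 8.59 ± 0.17, adjusted p 9.61e-09 and 1.36e-08). It was found in 99.2% of KATP pericytes and stood at 998 scaled CPM in endothelial cells. In the 366 low-contractile sham cells with exactly 1 gene of the rule it was found in 73.2%, at 1863 raw CPM. Hic1, a transcriptional repressor of mesenchymal progenitors, stood at 63.0, 59.5 and 58.1 against 1.68, 1.73 and 1.33 (5.25 ± 0.13), and Gng14, a G protein gamma subunit, at 53.4, 43.4 and 62.8 against 0.842, 0.404 and 0.699 (6.37 ± 0.17). Iqsec3, an exchange factor for ARF proteins, stood at 66.9, 50.5 and 71.5 against 1.38, 0.807 and 1.33 (5.76 ± 0.14). Slc5a5, the sodium-iodide symporter, had 1115 UMIs in KATP pericytes and 2 in contractile cells, 2040 times higher (95% exact interval 563 to 16900). Contractile cells held 2 to 12 UMIs of Slc5a5, Gng14, Iqsec3, Hic1, Ggt1 and Slc6a13 in all, so that the fitted sizes against these cells are not given.

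Cyp4b1, a cytochrome P450, and Smpd3, a neutral sphingomyelinase, stood at 61.7 ± 4.91 and 55.1 ± 7 scaled CPM against 1.02 ± 0.344 and 1.06 ± 0.354 in intermediate cells (5.96 ± 0.17 and 5.70 ± 0.17). The other 3 named genes rested on few cells or on cells with other markers. Dpt, dermatopontin, stood at 1150 raw CPM in the 59 cells with fibroblast markers and at 0.367 in cells without markers of another class. Inmt, an N-methyltransferase, stood at 683, 358 and 60.6 scaled CPM and was found in 11.2% of KATP pericytes. Its level was 1701 raw CPM in cells with fibroblast markers and 373 in cells without markers of another class, and it was not called against intermediate cells (adjusted p 0.0670). S100a8, a neutrophil gene, had 1514 of its 1527 UMIs in sham 2 in 1 cell. Its difference from intermediate cells was 8.67 ± 0.95, and 5.16 without sham 2, and the call was lost without sham 3 (adjusted p 0.104).

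At the other end, 725 genes passed the rule downward against contractile cells, led by Grip2, Rergl, Fam129a, Xirp1, Srl, Kcnma1, Casq2, Cnn1, Sh3bgr and Actg2. Against intermediate cells 487 passed, led by Rergl, Xirp1, Srl, Casq2, Pln, Pdlim3, Nrgn, Ntrk3, Mill1 and P2rx1. Rergl, a Ras-like gene of arterial muscle, stood at 0.659, 0.668 and 0.361 scaled CPM against 157, 126 and 174 in intermediate cells (-8.01 ± 0.16, adjusted p 1.65e-08). Casq2, the calcium store protein calsequestrin, was at 1.49 ± 0.437 against 105 ± 3.29, Pln, the pump inhibitor phospholamban, at 36.9, 24.7 and 44.0 against 1871, 1703 and 1949 (-5.71 ± 0.13), and Srl, sarcalumenin, at 0.943 ± 1.06 against 70.1 ± 19.0. Nrgn, the calmodulin-binding protein neurogranin, was at 15.8, 29.7 and 22.4 against 978, 957 and 900 (-5.38 ± 0.19). For Srl the difference of -6.23 became -7.50 without sham 3, and for Xirp1, an actin-binding muscle protein, -7.09 became -8.05 without sham 2. Grip2 had 1 UMI in KATP pericytes and 1979 in intermediate cells, 389 times higher there (95% exact interval 69.8 to 15400).

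Against the 318 low-contractile mural cells outside the rule, 9906 genes were tested, of which 10.7% (1062) were higher in KATP pericytes and 14.3% (1415) lower. Pth1r stood at 694 ± 135 scaled CPM against 69.7 ± 41.3 (3.45 ± 0.35, adjusted p 0.00595), and Higd1b at 2029 ± 200 against 340 ± 165 (2.68 ± 0.37). These counts depended on single libraries, with 316 to 1770 higher genes and 563 to 2302 lower genes when 1 library was left out. Without the cells of this group that carried choroid plexus markers, they were 259 and 555.

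Within KATP pericytes, the genes that varied most between cells included markers of fibroblasts and microglia. After thinning to 3000 UMIs, the ratio of variance to mean was at least 60.4 for Cst3, 21.6 for Dcn, 19.6 for Col1a1 and 13.8 for C1qa in every library, against a median of 0.989 over 3759 genes. Abcc9 followed at 6.09, 5.01 and 5.36 in sham 1 to 3, Kcnj8 at 2.96, 3.42 and 3.16 and Atp13a5 at 3.62, 3.22 and 2.70. Ndufa4l2 varied less, at 1.84, 1.84 and 1.78. These ratios describe cells that were chosen by the first 3 genes and have no test.

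The same rule applied to the infarction libraries found few cells. They held 9, 9 and 22 such cells, 0.151%, 0.122% and 0.363% of the cells past the filters, against 9.31%, 7.62% and 7.25% in the sham libraries. No infarction library came near a sham library. The mean share was 8.06% ± 1.1 (SD, n = 3) in sham and 0.212% ± 0.132 (SD, n = 3) in infarction, a difference of 7.85 points (exact two-sided permutation test, p = 0.1, the smallest that 3 libraries against 3 allow). The fall of mural cells was known from earlier results of these data when the comparison was made. A share falls with fewer pericytes, with fewer pericytes freed and captured, and with more of other cells, which cannot be told apart here.

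**Figure D5:**
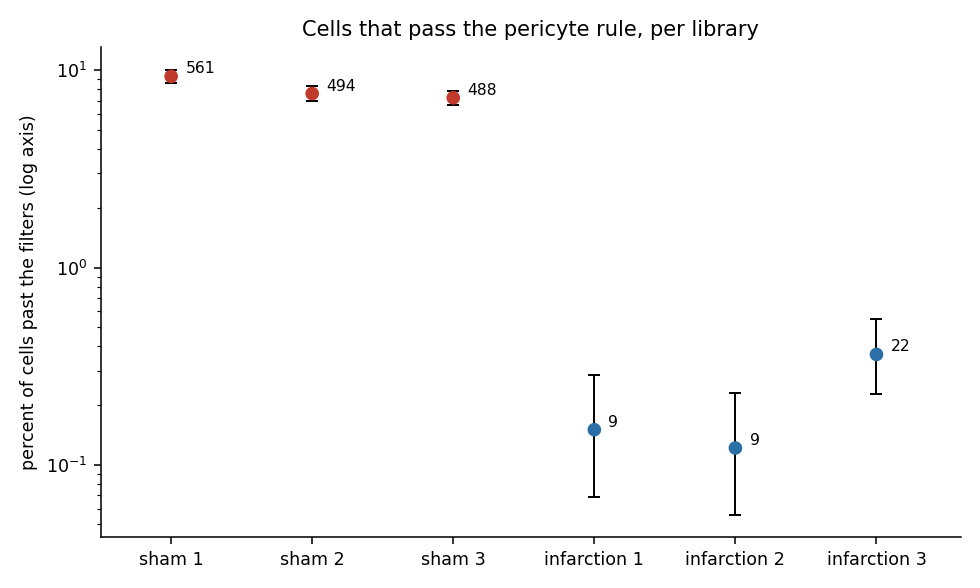
Share of the cells past the filters that pass the rule, per library, on a log axis, with exact 95% binomial intervals that cover counting error only and the number of cells beside each point. The 3 sham libraries lie at 7.25% to 9.31% and the 3 infarction libraries at 0.122% to 0.363%.

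Of the 40 cells in the infarction libraries, 23 carried endothelial markers, 17 of them in infarction 3, against 15 of the 1543 sham cells. Expression was not tested with so few cells, and the following intervals cover counting error only. The 17 cells without endothelial markers had a median of 1477 UMIs, so that the UMIs that the rule requires set a higher level of its genes than in the deeper sham cells, and Abcc9, Kcnj8 and Atp13a5 are not compared. These cells held Pth1r at 1231 raw CPM (exact Poisson 95% interval 891 to 1658) against 883 in the sham cells. Higd1b was at 1317 (964 to 1756) against 2589, Vtn at 2633 (2123 to 3229) against 4468 and Ndufa4l2 at 429 (240 to 708) against 1423. Spp1, the secreted phosphoprotein osteopontin of reactive tissue, was found in 10 of the 17 cells at 944 raw CPM (650 to 1326), against 7.71 in sham. Ccl2 was at 1259 (915 to 1691), in 4 of the 17 cells, against 76.4 in sham. Neither was particular to the 17 cells. The 23 cells with endothelial markers held Spp1 at 1712 raw CPM, in 19 of them, and Ccl2 at 1127, in 9 of them. The part of free RNA in these values was not tested. C1qa, a complement gene of microglia and macrophages, was also at 1717 (1310 to 2210), in 5 of the 17 cells, against 227 in sham, and its part in the Spp1 and Ccl2 values was not tested. The sham cells had a median of 3784 UMIs, and the part of depth in these values was not tested.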

How the data were processed

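The deposited matrices of the 6 libraries hold UMI counts of genes in cell barcodes, not normalized. The authors made these counts with Cell Ranger 3.1.0 and CASAVA 1.8 and also used Seurat 2.3.4, per the submitters' processing notes, from 10x Genomics 3′ libraries, per the labels' protocols. The genome build is not given in the sources used here. Members, comparison populations and gene lists were chosen with earlier results of these data known.

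Cells were selected by the stated rule. Counts were summed per library and population and tested with edgeR 4.0.16 (R 4.3.3; glmQLFit and glmQLFTest, robust, TMM, filterByExpr) with the library as a block, and p-values were adjusted by the Benjamini-Hochberg method over all genes tested. Sums of KATP pericytes held 2086120 to 2403491 UMIs, so that depth limits genes of low level. Populations of 1 library come from the same capture, which is why the library is the block. Genes of the rule stayed in the library sizes and had no call. SE is that of the log2 fold change. The fit was checked on simulated data, where it recovered 91% (contractile cells) and 84% (intermediate cells) of 100 genes changed by a fold of 2. It called 5 and 2 unchanged genes. The changed genes there were well expressed, few among all genes, and as many up as down. In the data 64.1% and 49.3% of genes were called, so that this check does not cover the dependence on scaling.

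Named genes were not in the rule, had an adjusted p under 0.05, a log2 fold change of at least 1, at least 50 CPM in the higher population and no overlap of libraries. From these the 10 largest in each direction were taken, without unnamed gene models or mitochondrially encoded genes, and members of the gene lists were added.

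Doublets were kept, and removed as an alternative (Scrublet in scanpy 1.11.5, score above 0.25). The other alternatives were RLE factors, DESeq2 1.42.0, no filter, no replicate block, each library left out, a limit of 10% mitochondrial UMIs, cells thinned to 3000 UMIs, all 3 genes of the rule and a contractile share under 0.5%. After the data were seen, no scaling factors and the removal of KATP pericytes with markers of another class were added. In the latter the other populations kept their cells with such markers. A cell had markers of another class with at least 3 of that class's markers, or 2 for endothelium.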

Additional observations from a re-analysis of the deposited data

How the results depend on the processing

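Over 14 alternatives, 1778 of 1799 values of the 129 named genes against contractile cells kept their side of the threshold and, where called, their direction. Against intermediate cells 1755 of 1786 values of 128 genes did so. A gene called in neither fit was counted as kept even if its sign turned. Ednra against intermediate cells was such a gene, at 0.01 and at -0.07 in its lowest alternative. Without scaling factors 7591 genes were higher and 1235 lower against contractile cells, and 6346 and 1291 against intermediate cells. Signs also turned without scaling factors for Cspg4 (0.73), Cacna1c (0.59), Vcl (0.62), Cald1 (0.23) and Col4a1 (0.10) against contractile cells, and for Cacna1c (0.42) and Cald1 (0.33) against intermediate cells. Cspg4 against contractile cells also turned in thinned cells (0.20), with all 3 genes of the rule (0.24) and without cells with markers of another class (0.20). With all 3 genes of the rule, Fn1 turned to -0.41 and -0.39 and Dpt to -0.26 (intermediate cells). Without cells with markers of another class, Fn1 turned to -0.84 and -0.86 and Cald1 to 0.012 (intermediate cells). Against low-contractile mural cells outside the rule, leaving out 1 library gave 316 to 1770 higher and 563 to 2302 lower genes, thinned cells gave 508 and 838, and the removal of choroid plexus marker cells gave 259 and 555. The cause was not tested. With no replicate block the counts were 3433 and 3314 (contractile), 2539 and 2819 (intermediate) and 1255 and 1460 (low-contractile). DESeq2 called 2538 and 2659 against contractile cells. For the share in sham and infarction libraries, a replicate block by same-numbered libraries gave the same difference of 7.85 points with an exact sign-flip p of 0.25, the smallest that 3 pairs allow, and the labels give the numbers no shared source. Over all alternatives the difference was 5.46 to 11.2 points. Depth limits the values of genes with few UMIs in 1 population.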
